A study of Rattus norvegicus with 4 samples.

Results

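The CC chemokines are small secreted proteins that draw leukocytes along a concentration gradient, named for the pair of adjacent cysteines near the start of the mature protein. They act through G protein-coupled receptors of the CCR family, and in the brain they are made by activated astrocytes and microglia. The members studied here were Ccl2, Ccl3, Ccl4, Ccl5, Ccl7, Ccl11 and Ccl20, 7 genes of the 18166 that the arrays measured with a probe carrying a single gene symbol. They were chosen by gene symbol, and each had exactly 1 such probe. Ccl2 and Ccl7 encode monocyte attractants that bind CCR2, and Ccl11 encodes eotaxin, an eosinophil attractant that binds CCR3. Ccl3, Ccl4 and Ccl5 encode attractants of T cells and macrophages, and Ccl20 encodes the ligand of CCR6.

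Expression was measured on 4 single-colour arrays, 1 for each of 4 cultures of primary cortical astrocytes prepared from Sprague-Dawley rats at the age of 1 day. All cultures were transfected with an siRNA, either a control siRNA or one against SHP, and had been held in serum-free medium for 2 days, which the labels give as a step to deplete microglia and meningeal cells. The control siRNA cultures were untreated, treated with interferon-γ (IFN-γ), or treated with IFN-γ and a compound that the labels call GW. The SHP siRNA culture received IFN-γ and GW too, and each treatment was for 3 h. There was 1 array per group, so conditions were compared without a test or an error estimate, and effects of a treatment and of a single culture or array cannot be told apart. Values are log2 signals, a difference of 1.00 is a 2-fold change, and a level is compared only within a probe, since probes of different genes respond differently.

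The arrays were alike in scale, with medians between 5.79 and 5.87. Nr0b2, the gene of small heterodimer partner, a nuclear receptor abbreviated SHP, stood at 5.33, 5.14 and 5.20 in the untreated, IFN-γ and IFN-γ with GW cultures and 3.45 with SHP siRNA, all below the median of the whole table, 5.83, so the size of that difference is uncertain. Of 12 astrocyte markers 9 had a probe and all 9 lay above that median on at least 1 array, Gfap between 12.03 and 12.11. Markers of microglia were also present, with all 14 measured above that median on at least 1 array, Csf1r between 8.77 and 9.82 and Aif1 between 8.54 and 9.64. The summed linear signal of the microglia markers was highest in the untreated culture (11100) and lowest with IFN-γ and GW (6140), and that of the astrocyte markers ranged from 15700 to 18700. In bulk cultures fewer cells of a type and less RNA per cell cannot be told apart.

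Across the cultures the members formed 3 patterns. Ccl2, Ccl3, Ccl4, Ccl7 and Ccl20 were lowest in the untreated culture and highest with IFN-γ alone, and stood between these in both cultures that received GW. Ccl5 was highest in the untreated culture and lowest with SHP siRNA. Ccl11 lay below the table median on every array and spanned 0.29 log2 in all. With no replicates there is no spread against which to say which neighbours in these orders differ.

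**Figure D1:**
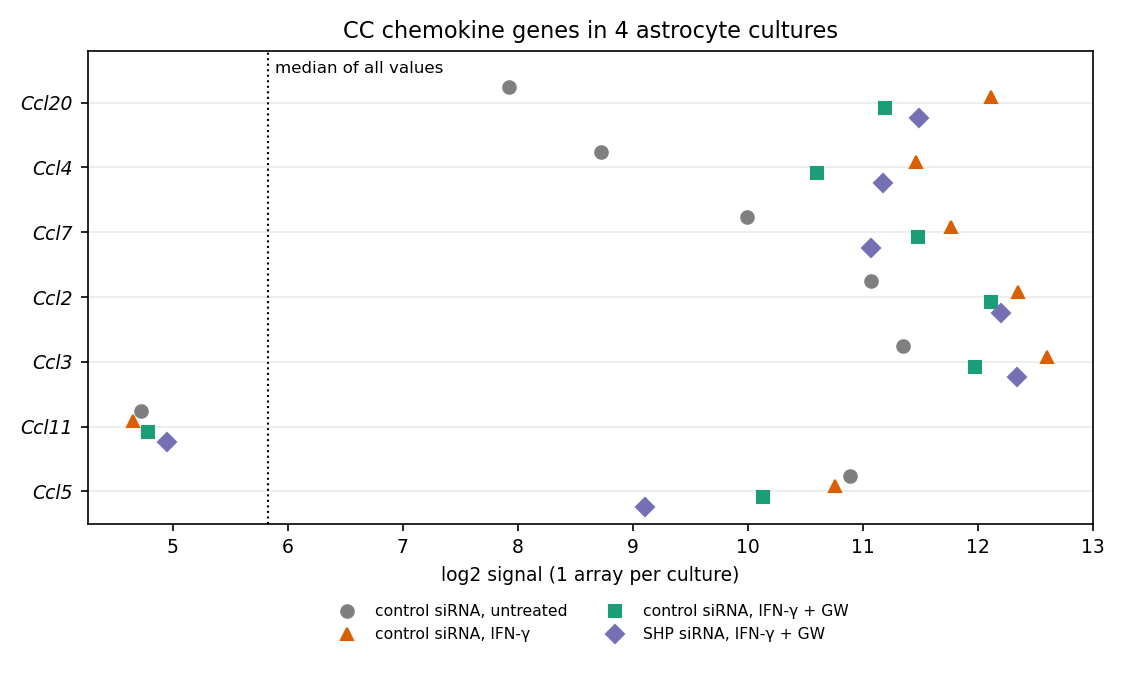
Log2 signal (horizontal axis) of each of the 7 CC chemokine genes in each of the 4 cultures, 1 point per array. The dotted line is the table median, 5.83; Ccl20 spans 4.19 log2 between the untreated and IFN-γ cultures, while all 4 values of Ccl11 lie left of the line.

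Ccl20, the CCR6 ligand, had the widest span. Its log2 value was 7.92 in the untreated culture, 12.11 with IFN-γ, 11.19 with IFN-γ and GW and 11.49 with SHP siRNA. The untreated culture stood far below the other 3, which lay within 0.92 of each other. Ccl20 was 18.2-fold higher with IFN-γ than without, the 2nd highest difference of the 11790 genes whose highest value reached the table median.

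Ccl4 followed with values of 8.73 untreated, 11.46 with IFN-γ, 10.60 with IFN-γ and GW and 11.17 with SHP siRNA. It was 6.65-fold higher with IFN-γ, the 16th highest difference. Ccl3, another macrophage attractant gene, had 11.35, 12.60, 11.97 and 12.34 in the same order of cultures. Its difference with IFN-γ was 2.39-fold, so the gene pair shared an order of cultures but not a size of difference.

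Ccl7, a ligand of CCR2, had log2 values of 10.00 untreated, 11.77 with IFN-γ, 11.48 with IFN-γ and GW and 11.08 with SHP siRNA. Among the 5 genes that were higher with IFN-γ it was the one whose SHP siRNA value lay below that with control siRNA under the same treatment. Ccl2, the other CCR2 ligand, had 11.07, 12.35, 12.12 and 12.20, and its 3 IFN-γ treated cultures lay within 0.24 of each other. With IFN-γ alone Ccl7 was 3.42-fold and Ccl2 2.44-fold higher than untreated.

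Ccl5, also known as RANTES, went another way. Its log2 value was 10.89 untreated, 10.76 with IFN-γ, 10.13 with IFN-γ and GW and 9.10 with SHP siRNA. The untreated and IFN-γ cultures lay within 0.13 of each other and the SHP siRNA culture stood lowest, 1.03 below control siRNA with IFN-γ and GW. Ccl11 had 4.72, 4.66, 4.79 and 4.95 in the same order. Since no background level of the arrays is known, values this low set no direction for Ccl11.

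The RefSeq promoter table for rat assembly GRCr8 held 2 of the 7 members, Ccl20 and Ccl7. Ccl2, Ccl3, Ccl4, Ccl5 and Ccl11 were not matched. The 250 bases before the start site of Ccl20 and Ccl7, the 2 members found, are shown 5′ to 3′ on the plus strand. Capitals mark matches to the κB consensus, the site bound by NF-κB, and to TGANTCA, a loose form of the AP-1 site. Each was searched on both strands. The Ccl20 stretch is chr9:91836909-91837158 and the Ccl7 stretch is chr10:67513845-67514094.
Ccl20: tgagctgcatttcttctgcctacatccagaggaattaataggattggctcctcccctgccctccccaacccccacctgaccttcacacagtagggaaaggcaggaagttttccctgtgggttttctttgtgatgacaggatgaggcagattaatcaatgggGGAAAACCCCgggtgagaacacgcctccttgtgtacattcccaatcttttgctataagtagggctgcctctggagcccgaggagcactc
Ccl7: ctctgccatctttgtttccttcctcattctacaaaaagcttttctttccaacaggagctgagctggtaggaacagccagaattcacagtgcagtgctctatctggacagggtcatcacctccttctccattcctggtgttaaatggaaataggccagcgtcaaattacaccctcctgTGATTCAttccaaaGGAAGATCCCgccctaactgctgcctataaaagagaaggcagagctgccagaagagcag

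Each stretch held 1 κB match, on the minus strand. It read GGGGTTTTCC at bases -89 to -80 from the start site of Ccl20 and GGGATCTTCC at bases -59 to -50 of Ccl7. Of 33469 promoters of the same length in the table, 6.33% held such a match. The Ccl7 stretch also held TGATTCA at bases -73 to -67, a match to TGANTCA, a pattern found in 6.34% of promoters. That pattern is its own reverse complement, so a match on either strand is a match on both. A TATA box, spelled TATAAA and found in 12.9% of promoters, lay at bases -34 to -29 of Ccl7. The interferon-stimulated response element core GAAANNGAAA (3.41% of promoters) and the interferon-γ activated site TTCNNNGAA (7.67%) were searched too and were not in either window. TGANTCA and TATAAA were not in the Ccl20 window. The κB, TGANTCA and TATA box matches of Ccl7 did not overlap each other. A match describes the letters and is no evidence of binding, and a missing match says only that these letters are not in this window.

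With IFN-γ, 5 of the 7 members were at least 2-fold higher than in the untreated culture and 0 were lower. The share of all genes tested that was past the same fold was 1.61% on the higher side and 0.288% on the lower. The median difference of the 7 was 1.28 log2, against -0.04 over all genes. The differences were 4.19 for Ccl20, 2.73 for Ccl4, 1.77 for Ccl7, 1.28 for Ccl2 and 1.26 for Ccl3. Those of Ccl11 (-0.06) and Ccl5 (-0.13) lay inside the middle 95% of all genes, -0.48 to 0.67. Ccl5 stood 1.66 log2 below the median of the other 6 members, whose range was -0.06 to 4.19.

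Microglia markers stood lower in the same comparison, 13 of 14 below 0 with a median of -0.44, and their part in the chemokine values was not tested. The marker above 0 was Ptprc, at 0.23. Over all genes 40.1% lay above 0. Astrocyte markers had a median of 0.08, with 0 of 9 at 2-fold.

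**Figure D2:**
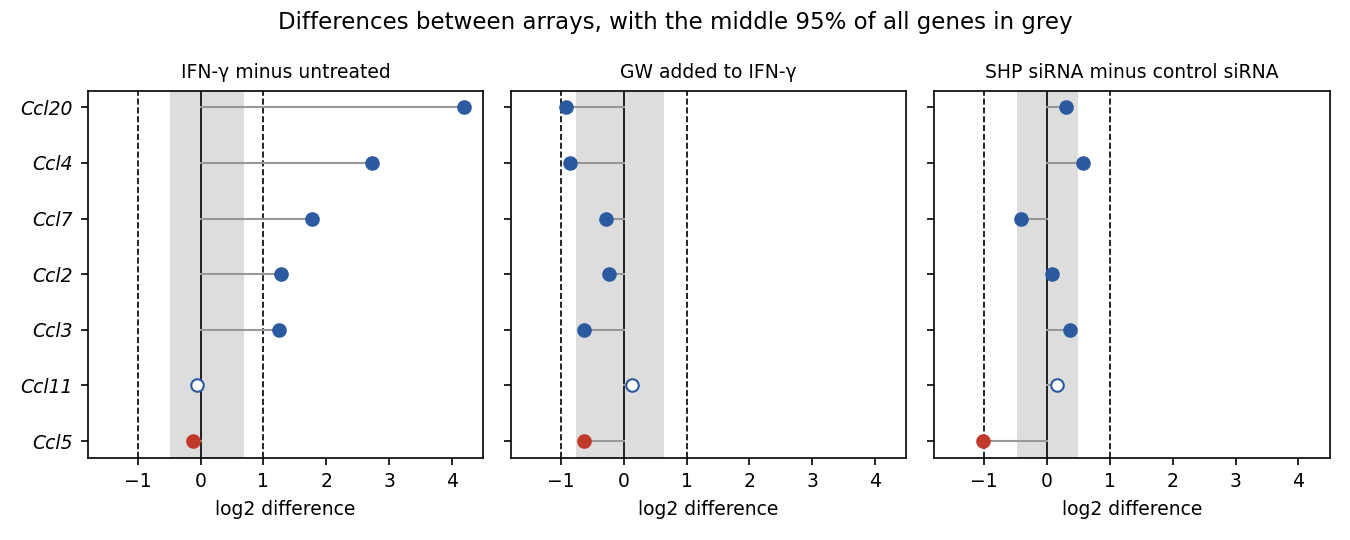
Log2 difference (horizontal axis) of each member in the 3 comparisons, with the middle 95% of 11790 genes shaded and 2-fold marked by dashed lines; the open point is Ccl11, which did not pass the filter. Ccl5, in red, is inside the shaded band with IFN-γ (-0.13) and outside it with SHP siRNA (-1.03).

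When GW was added to IFN-γ, none of the 7 members passed the 2-fold threshold (0 on the higher side, 0 on the lower). Over all genes the shares were 0.958% higher and 0.950% lower. The 6 members other than Ccl11, which were above the table median on all 4 arrays, all lay below 0, and the median of the 7 was -0.63, against -0.05 over all genes, of which 42.1% lay above 0. Ccl20 (-0.92, 1.89-fold lower) and Ccl4 (-0.86, 1.82-fold lower) lay outside the middle 95% of all genes, -0.75 to 0.62. Ccl3 and Ccl5 both stood at -0.63, or 1.55-fold lower, while the CCR2 ligand genes Ccl7 (-0.29) and Ccl2 (-0.24) differed least among those past the filter.

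Ccl5 did not stand apart from the other members here. It lay 0.17 below the median of the other 6, and at 0.0009 from that of the 5 past the filter, a contrast added after the data were seen. The comparison shares the IFN-γ array with the one before, so error of that array enters both with opposite signs. Microglia markers were lower again, 12 of 14 below 0 with a median of -0.47, and their part in the lower chemokine values was not tested. Astrocyte markers had a median of -0.23, 6 of 9 below 0. Over all genes 42.1% lay above 0, so the astrocyte count is near the share of all genes.

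Against the untreated culture, the culture with IFN-γ and GW still had 4 members at least 2-fold higher, Ccl20 at 9.64-fold, Ccl4 at 3.66-fold, Ccl7 at 2.80-fold and Ccl2 at 2.07-fold, and 0 lower. The shares over all genes were 1.65% higher and 0.840% lower. Ccl3 was 1.54-fold higher, short of the threshold, and Ccl5 was 1.69-fold lower.

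Between the 2 cultures with IFN-γ and GW, which differed in their siRNA, Ccl5 was the 1 member at least 2-fold lower with SHP siRNA and 0 were higher. Over all genes the shares were 0.263% lower and 0.144% higher. Ccl5 was 2.04-fold lower, just past the threshold, and had the 29th lowest difference of 11790 genes. Ccl4 (0.57), Ccl3 (0.37), Ccl20 (0.30) and Ccl2 (0.08) lay above 0 and Ccl7 (-0.41) below it. Of these Ccl4, 1.49-fold higher, lay outside the middle 95% of all genes, -0.46 to 0.48. The median of the 7 was 0.16, against 0.01 over all genes, and Ccl5 stood 1.26 below the median of the other 6.

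The member nearest to Ccl5 in this comparison was Ccl7, 0.62 log2 above it. The control siRNA array with IFN-γ and GW also enters the GW comparison. Error of that array enters both with opposite signs. Microglia markers had a median of 0.14 in this comparison, 11 of 14 above 0, and Ccl5 was at -1.03. Astrocyte markers had a median of 0.19 and those of meningeal cells and fibroblasts one of 0.46, 5 of 8 above 0. Over all genes 51.5% lay above 0. Whether these cells gave any part of the chemokine values was not tested.

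**Figure D3:**
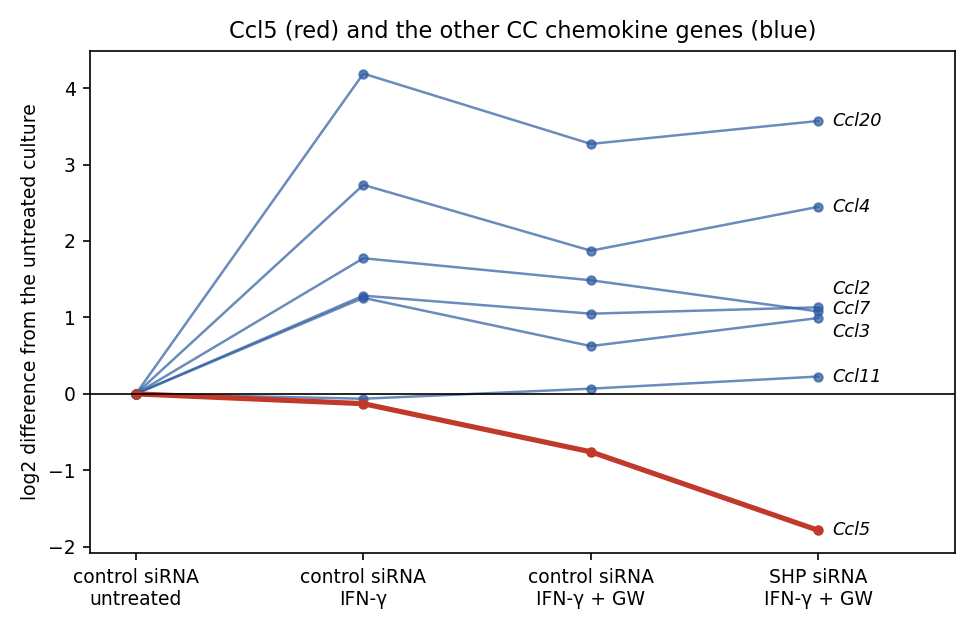
Log2 difference of each member from its own value in the untreated culture (vertical axis) in each culture, 1 array each; lines join points of a gene and show no time course. Ccl5 ends 1.79 below its untreated value with SHP siRNA, where Ccl20 is 3.57 above its own.

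Set against the untreated culture, the SHP siRNA culture had 4 members at least 2-fold higher and 1 lower, with 1.59% and 0.882% of all genes past those folds. Ccl20 was 11.9-fold, Ccl4 5.45-fold, Ccl2 2.19-fold and Ccl7 2.11-fold higher, and Ccl3 was 1.99-fold higher, just short of the threshold. Ccl5 was 3.45-fold lower, the 3rd lowest difference of 11790 genes, 2.89 log2 below the median of the other 6 members. This contrast of Ccl5 with the others was the widest of the 6 pairs of cultures.

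Set against IFN-γ alone, the SHP siRNA culture had 1 member at least 2-fold lower and 0 higher, beside 0.407% and 0.450% of all genes. That member was Ccl5, 3.15-fold lower and the 6th lowest of all genes. The other members past the filter stood between -0.70 (Ccl7) and -0.15 (Ccl2), so they lay nearer to their IFN-γ values than Ccl5 did.

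By the root mean square distance between values centred on each gene's own mean over the 4 arrays, Ccl2 and Ccl3 had the most alike patterns of all 21 pairs of members, at 0.17 log2. Ccl2 and Ccl7 followed at 0.25. The member nearest to Ccl5 was Ccl11, at 0.81, and the nearest past the filter was Ccl3, at 0.98. The farthest was Ccl20, at 2.04, the widest distance of any pair.

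Among 11616 genes other than the members the nearest to Ccl5 was Calcrl, which encodes the calcitonin receptor-like receptor, at a distance of 0.10. This is nearer than any of the other 6 members, but so large a pool makes a nearer gene likely. Its values were 9.11 untreated, 9.21 with IFN-γ, 8.46 with IFN-γ and GW and 7.60 with SHP siRNA. C3h15orf48 (0.17), Ifi27l2b (0.22), Calhm5 (0.24) and Cntf (0.25), which encodes ciliary neurotrophic factor, came next. All 5 were lowest with SHP siRNA, which follows from picking them by their likeness to Ccl5. Around the median pattern of the other 6 members the nearest genes were Socs2 (0.07), a suppressor of cytokine signalling, Zc3h12a (0.11), which encodes a ribonuclease for inflammatory mRNAs, Birc2 (0.12), an inhibitor of apoptosis, Hivep1 (0.12) and Pakap (0.12). These likenesses rest on 4 arrays and describe them only.

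In the RefSeq gene order the members other than Ccl20, which lies on chromosome 9, sit on chromosome 10 in 2 groups separated by 27 other protein-coding genes. The first runs Ccl2, Ccl7, Ccl11, Ccl12 and Ccl1 and the second Ccl5, Ccl9, Ccl6, Ccl3 and Ccl4, with no other coding gene inside either (0 between neighbours). Ccl11, next to Ccl7, lay below the table median on every array, and Ccl7 was 3.42-fold higher with IFN-γ alone than untreated. In the second group Ccl6, a ligand of CCR1, had values of 9.91, 9.29, 8.86 and 8.31 in the untreated, IFN-γ, IFN-γ with GW and SHP siRNA cultures. Its order of cultures was the same as that of Ccl5, and the share of all genes with that order was not computed. Ccl9, between Ccl5 and Ccl6, had 8.42, 8.84, 8.79 and 8.86, with differences no greater than 0.42 in the main comparisons.

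**Figure D4:**
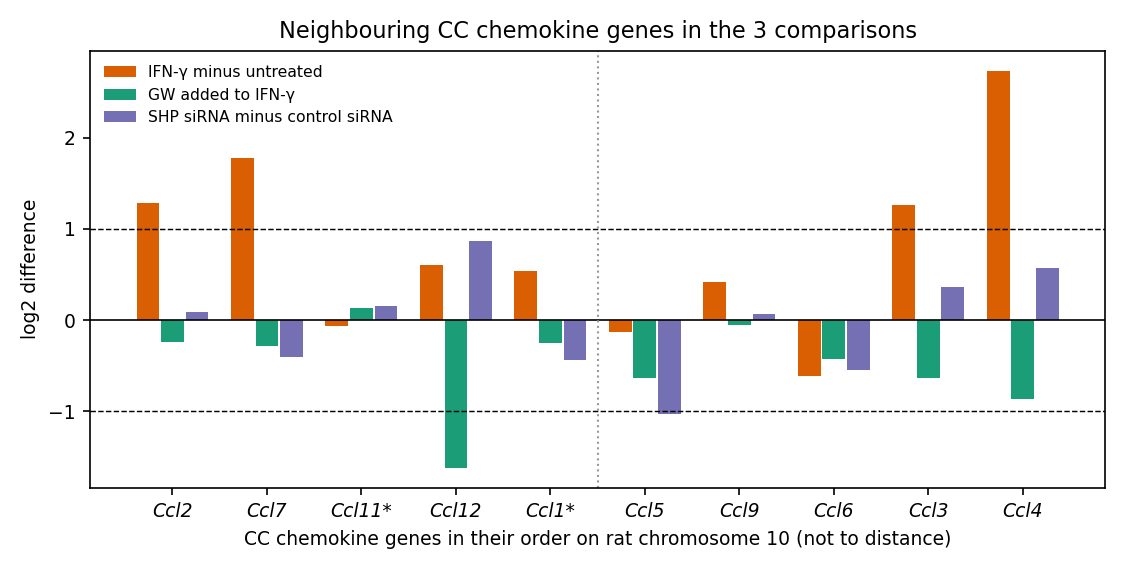
Log2 difference (vertical axis) in the 3 comparisons for the CC chemokine genes of rat chromosome 10, in gene order but not at scale; the dotted line separates the 2 groups, dashed lines mark 2-fold and asterisks mark genes below the filter. Ccl5 and Ccl6 have all 3 bars below 0, while Ccl3 and Ccl4 stand at 1.26 and 2.73 with IFN-γ.

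Of 13 other CC chemokine genes, all with a probe, 8 passed the filter. With IFN-γ 0 were at least 2-fold higher and 1 lower, Ccl22, whose protein binds CCR4, from 7.94 to 6.90 (2.06-fold). With GW 0 were higher and 1 lower, Ccl12, a monocyte attractant gene, from 10.23 to 8.60 (3.08-fold). With SHP siRNA 0 passed in either direction, with Ccl12 at 0.87. Their medians in these comparisons were 0.15, -0.23 and -0.14. Ccl12 thus differed with GW by more than any of the 7 members, whose lowest value was -0.92.

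The receptors of these ligands had low values in the cultures. Of 11 receptor genes measured 2 passed the filter. Ccr1 lay between 3.16 and 3.50, Ccr2 between 2.78 and 2.80, Ccr3 between 2.73 and 3.05 and Ccr6 between 3.73 and 4.09, all below the table median on every array. Ccr7 passed at 6.03 to 6.36 and did not reach 2-fold in any main comparison. Ccrl2, an atypical receptor, went from 5.53 untreated to 9.35 with IFN-γ, then stood at 8.77 with GW and 9.28 with SHP siRNA. It was 14.2-fold higher with IFN-γ, though its untreated value lay below the table median, which makes that fold uncertain.

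Genes of the NF-κB family and its inhibitors, which control many chemokine genes, stood higher with IFN-γ. The median of 13 genes was 1.08, and 7 reached 2-fold upwards and 0 downwards. Nfkbie (4.55-fold), Rel (4.17-fold) and Nfkbiz (3.86-fold) led them. With GW 0 were higher and 1 lower, Nfkb2, 2.13-fold, with a median of -0.14. With SHP siRNA 0 passed and the median was 0.18, 12 of 13 above 0, where Ccl5 was at -1.03. Over all genes 51.5% lay above 0 in that comparison. The part of these regulators in the chemokine values was not tested.

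Interferon factors and other regulators tied to Ccl5 had a median of 0.06 with IFN-γ, 3 of 12 at least 2-fold higher and 0 lower. The 3 were Ifnb1 (9.18-fold, from 5.07, below the table median), Irf1 (6.20-fold) and Irf8 (2.02-fold). None reached 2-fold with GW (0 of 12, median -0.11) or SHP siRNA (0 of 12, median 0.03). Irf1 stood at 12.07 with IFN-γ, 11.93 with GW and 12.27 with SHP siRNA, cultures over which Ccl5 went from 10.76 to 9.10. Klf13, which encodes a factor known to bind the promoter of Ccl5 in T cells, stood at 8.22 with control siRNA and 8.19 with SHP siRNA, both under IFN-γ and GW. Whether any gene of this list bears on the Ccl5 values was not tested.

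AP-1 and C/EBP genes had 2 of 7 at least 2-fold higher with IFN-γ, Junb (3.83-fold) and Fosl1 (3.22-fold). With GW 5 of 7 were higher and 0 lower, led by Fos (7.84-fold), Atf3 (4.58-fold) and Jun (4.07-fold), where the chemokine members past the filter lay below 0. With SHP siRNA all 7 lay below 0 with a median of -0.61 and 0 at 2-fold, where Ccl5 was at -1.03. Over all genes 51.5% lay above 0 in that comparison. The GW and SHP siRNA differences share the control siRNA array with IFN-γ and GW, with opposite signs. A link of this list to the chemokine values was not tested. The medians with IFN-γ and GW were 0.64 and 1.09.

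Regulators of mRNA decay act on the life of chemokine transcripts among others. Of these, 2 of 8 were at least 2-fold higher with IFN-γ, Zc3h12a (3.62-fold) and Zfp36 (2.71-fold). With GW 1 of 8 was higher, Zfp36l2 (2.40-fold), and with SHP siRNA none (0 of 8). No member of this list was at least 2-fold lower in these comparisons (0 of 8). Medians were 0.04, 0.09 and 0.01.

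**Figure D5:**
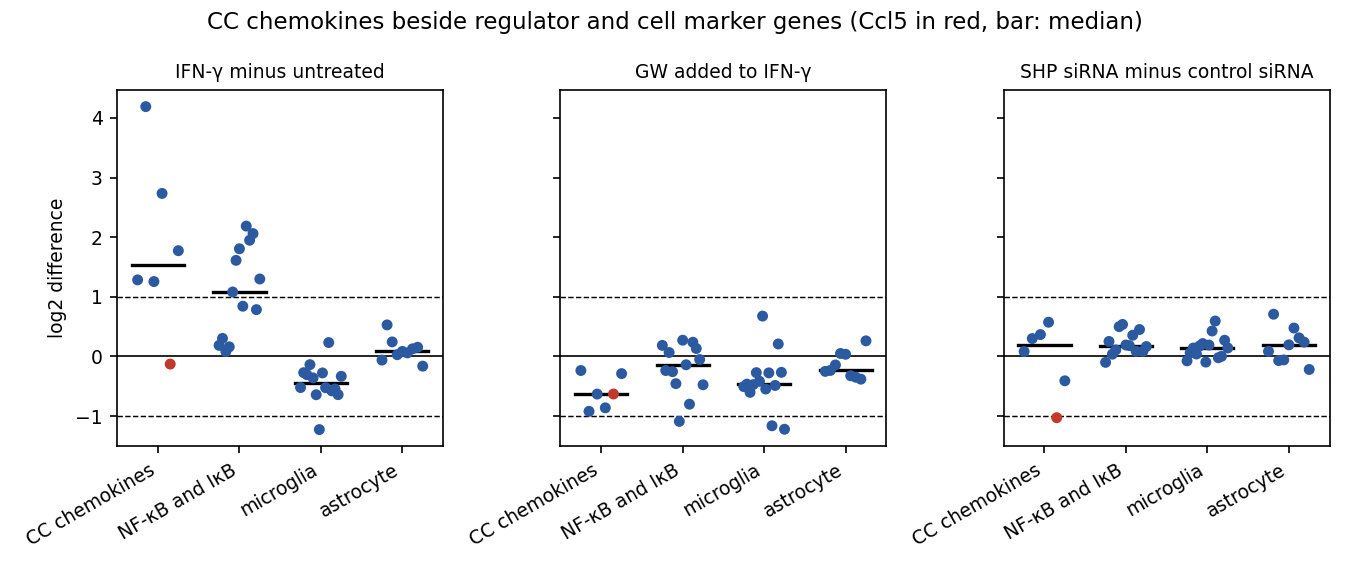
Log2 difference (vertical axis) of each gene past the filter in 4 gene lists, for the 3 comparisons; points are genes, bars are list medians and Ccl5 is red. With IFN-γ the medians are 1.53 for 6 chemokine members, 1.08 for NF-κB genes, -0.44 for microglia markers and 0.08 for astrocyte markers.

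T and natural killer cells are a textbook source of Ccl5, and their part in its values was not tested. Of 12 measured markers 2 passed the filter, Cd4, which rat microglia and macrophages also carry, and Cd5, and Cd3d, Cd3e, Cd3g, Gzma, Gzmb, Prf1 and Nkg7 lay below the table median on every array. Cd3e stood between 4.14 and 4.21 and Gzma between 2.46 and 2.75. The summed linear signal of the list ran from 1320 to 2510, and most of it came from Cd4 on every array. Cd4 stood at 11.11 untreated, 10.84 with IFN-γ, 9.98 with IFN-γ and GW and 10.61 with SHP siRNA. The 2 markers past the filter, Cd4 and Cd5, had medians of -0.20, -0.41 and 0.35 in the 3 comparisons.

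Among microglia markers 1 of 14 was at least 2-fold lower with IFN-γ, Cx3cr1 (2.34-fold), and 2 with GW, Tyrobp (2.33-fold) and Ptprc (2.24-fold). None reached 2-fold with SHP siRNA (0 of 14), where Ptprc was at 0.59. Csf1r stood at 9.82 untreated, 9.18 with IFN-γ, 8.77 with IFN-γ and GW and 8.98 with SHP siRNA. In 2 of the 14, Aif1 and Spi1, the order of cultures was that of Ccl5, highest untreated and lowest with SHP siRNA. Aif1 had 9.64, 9.11, 8.61 and 8.54 in the same order of cultures, and Spi1 had 9.13, 8.55, 8.06 and 8.04. With SHP siRNA Aif1 and Spi1 differed by -0.07 and -0.02, inside the middle 95% of all genes, and 11 of the 14 markers lay above 0. Cnp, in the list of neurons and oligodendrocytes, had the order of Ccl5 too, but its SHP siRNA difference was -0.0008. The share of all genes with that order was not computed. The part of microglia in the Ccl5 values was not tested. Markers of meningeal cells and fibroblasts, 8 of 10 past the filter, had medians of 0.06 with IFN-γ and -0.04 with GW. In that list Aldh1a2 was 2.31-fold lower with GW and 2.16-fold higher with SHP siRNA, differences that share an array with opposite signs. The summed signal of the list ran from 2330 to 3150. Endothelial markers (2 of 6 past the filter; 0.14, -0.38 and 0.44) and those of neurons and oligodendrocytes (8 of 12; 0.07, 0.05 and 0.00) had 0 genes at 2-fold.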

How the data were processed

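Total RNA was labelled with biotin and hybridised to single-colour arrays, per the labels' protocols. The deposited table gives 1 value per probe and array; these were read as log2 signal from their range, and neither the log base nor the background correction and normalization used by the authors is given in the sources used here. Of 29489 probes 18511 carry 1 gene symbol in the platform annotation, and 18394 of these matched a RefSeq gene of assembly GRCr8, which gave the current symbol. The probe with the highest mean stood for a gene. Genes whose highest value reached 5.83, the median of the table, passed the filter (11790). A gene was counted at a difference of at least 2-fold. The code was checked on simulated data. Python 3.11.15 was used throughout, with quantile normalization and cyclic loess in limma 3.58.1 (R 4.3.3). The members, the 13 gene lists and the comparisons were chosen with earlier results of these data known. Genes named outside the members were up to 3 per list and comparison with the greatest difference past 2-fold, plus the 5 nearest in pattern; neighbours on chromosome 10, receptors, Klf13 and markers given by value were named after their values were seen.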

Additional observations from a re-analysis of the deposited data

How the results depend on the processing

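Every difference rests on 1 array per culture, so no replicate could be left out. No paired analysis was possible because each group holds 1 array. Quantile normalization and cyclic loess left the counts of members at 2-fold and the contrasts of Ccl5 within the limits set (1.5 times for a count, 0.1 log2 for a value), and median centring so left the counts. Median centring cannot move a contrast within arrays, and the mean of a gene's probes cannot move a member, since each has 1 probe. None of the 21 member differences turned sign under the 3 scalings (0 of 21), and the greatest move was 0.12 log2, with cyclic loess in the GW comparison. Ccl5 with SHP siRNA ranged from -1.06 to -1.01, near the threshold.

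The threshold set some counts. At 3-fold, 3 members were higher with IFN-γ in place of 5 and 0 lower with SHP siRNA in place of 1. At 1.5-fold, 4 members were lower with GW in place of 0. The shares of all genes at 1.5-fold and 3-fold were not computed, so these counts show only how the threshold acts. With the mean of the other 6 members in place of their median, Ccl5 stood at -1.99 against them with IFN-γ. Without Ccl11, a choice made after seeing the data, it stood at -1.90 with IFN-γ and at 0.0009 with GW. Of the 5 genes nearest to Ccl5 by distance, 1 was among the 5 nearest by Pearson correlation. Without the filter, or with one on the mean, the shares of all genes at 2-fold stayed within 1.5 times of those given.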
